A study of Mus musculus with 8 samples.

Results

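The genes described here mark T cells and cytotoxic lymphocytes: the CD3 chains Cd3d, Cd3e and Cd3g, the surface proteins Cd2, Cd4 and Cd8a, the kinase Lck, and the granule proteins Gzma, Gzmb and Prf1. They were chosen by name, and each was read through every probe set that the array's annotation assigned to that gene alone. Of the 10 genes, 9 had such a probe set and Lck was not analysed here. The 9 genes had 10 probe sets among the 12422 on the array that were not controls, since Cd3d had 2. A probe set was tested when it lay above an intensity floor of 69.63, the 20th percentile of all values, on at least 2 of the 8 arrays. The member probe sets that were tested numbered 8, 1 for each of 8 genes. Cd8a and the second Cd3d probe set were not tested, because each exceeded the floor on 1 array. Of the probe sets on the whole array, 10953 were tested.

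The study measured total RNA from whole mouse lung on 8 oligonucleotide arrays, in 4 groups of 2. C3H/HeJ mice breathed filtered air or ozone, and C3H/HeOuJ mice breathed filtered air or ozone. The series title concerns the effect of ozone on airway hyperpermeability. C3H/HeJ carries a missense mutation in Tlr4, the receptor for bacterial lipopolysaccharide, and the related substrain C3H/HeOuJ has an intact Tlr4. Both are inbred lines that share the C3H background, and no other allele or agent is named. An exposure of 72 h is stated for both HeOuJ groups. The exposure time of the HeJ groups, the ozone concentration, and the age and sex of the mice were not given in the sources used here. The arrays of a group are lettered 1a and 1b. Nothing says that they came from separate animals. The p-values therefore rest on array-to-array spread alone, part of which may be technical, and the number of arrays limits the precision.

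A T cell recognises a peptide through its antigen receptor, which signals through the CD3 chains, while CD4 or CD8 bind the presenting molecule and bring the kinase Lck to the receptor. Cytotoxic T cells and natural killer (NK) cells kill by releasing granules in which perforin opens the way for the granzymes. These cells patrol the normal lung and gather there during infection and allergic inflammation. In whole lung they are a minority, and fewer cells of a type cannot be told apart from less RNA per cell.

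Genes of lung epithelium and endothelium summed to 157853 to 238952 over 9 probe sets, with none under the floor on every array; these are markers of the labelled tissue. The arrays were not of equal RNA quality by 1 measure. The ratio of signal from the 5′ end to the 3′ end of the actin transcript was 0.766 and 0.756 on the HeOuJ ozone arrays and 0.432 to 0.603 on the other 6. The same ratio for Gapdh was 1.34 and 1.18 against 0.775 to 1.06. The rank correlation between the HeOuJ ozone arrays was 0.936, against 0.957 to 0.965 within the other groups. The part of these differences in the comparisons that involve the HeOuJ ozone group was not tested, apart from a fit with the actin ratio as a covariate that is given with the results.

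The CD3 chains, which carry the signal of the antigen receptor into the cell, lay close to the floor. Cd3e (probe set 102971_at) was the 1 chain above the floor on all 8 arrays. Its intensity was 94.3 and 101 in HeJ air, 93.8 and 104 in HeJ ozone, 78.4 and 100.3 in HeOuJ air, and 83.8 and 102 in HeOuJ ozone. The 4 groups overlapped, with means of 97.5 ± 4.60, 98.8 ± 7.14, 89.3 ± 15.5 and 93.1 ± 13.2 in the same order (SD, n = 2).

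Cd3d (92683_at) gave 80.8 and 66.0 in HeJ air, 107 and 53.2 in HeJ ozone, 75.4 and 62.4 in HeOuJ air, and 137 and 59.1 in HeOuJ ozone. In every group the array lettered 1a was above the floor and the array lettered 1b below it, and all 4 groups overlapped. The second Cd3d probe set (161863_r_at) ran from 2.33 to 94.3 with a median of 18.2, and exceeded the floor on 1 HeJ air array. The 2 probe sets of this gene therefore did not show the same arrays as high. Cd3g (100001_at) read 56.5 and 60.6 in HeJ air, 33.1 and 114 in HeJ ozone, 45.8 and 100.6 in HeOuJ air, and 18.0 and 47.1 in HeOuJ ozone. It exceeded the floor on 1 HeJ ozone array and 1 HeOuJ air array, and the HeJ air and HeOuJ ozone groups therefore give only a bound. No fold change is given for Cd3g.

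Among the surface proteins, CD4, the coreceptor of helper T cells, was read well above the floor. Cd4 (103480_at) gave 597 and 507 in HeJ air, 851 and 487 in HeJ ozone, 670.0 and 472 in HeOuJ air, and 386 and 677 in HeOuJ ozone. All 4 groups overlapped, and within each ozone group the 2 arrays differed by more than any pair of group means did. Cd8a (102975_at), the coreceptor chain of cytotoxic T cells, lay between 11.5 and 88.3 with a median of 35.9, and exceeded the floor on 1 HeOuJ air array. Its level was not measurable here in the other 3 groups.

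CD2 is an adhesion protein of T cells and NK cells that mouse B cells also carry. Cd2 (95373_at) read 184 and 225 in HeJ air, 113 and 99.1 in HeJ ozone, 327 and 216 in HeOuJ air, and 385 and 245 in HeOuJ ozone. The HeJ ozone arrays were the lowest of the 8, with a group mean of 106 ± 10.1 against 205 ± 28.7 in HeJ air, 271 ± 78.0 in HeOuJ air and 315 ± 98.5 in HeOuJ ozone (SD, n = 2). The HeJ air and HeOuJ air arrays overlapped, as did both HeOuJ groups.

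The granule genes were on the array as granzyme A, granzyme B and perforin. The promoters of these 3 genes are shown because their products act together in the same granule. The sequences are those of RefSeq on GRCm38.p6, from 250 bases before to 50 bases after the start site, on the gene's own strand. Gzma lies on the minus strand at chr13:113100932-113101231, Gzmb on the minus strand at chr14:56262285-56262584, and Prf1 on the plus strand at chr10:61297586-61297885. Capitals mark matches, on either strand, to the Ets-type core GGAAGT, the Runx-type core TGTGGT and the core of the cyclic AMP response element, TGACGT.
Gzma: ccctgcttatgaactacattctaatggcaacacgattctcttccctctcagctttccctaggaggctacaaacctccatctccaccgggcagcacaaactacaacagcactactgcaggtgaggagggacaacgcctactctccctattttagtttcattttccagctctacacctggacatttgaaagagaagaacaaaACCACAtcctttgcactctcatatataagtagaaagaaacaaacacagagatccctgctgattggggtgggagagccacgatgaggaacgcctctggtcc
Gzmb: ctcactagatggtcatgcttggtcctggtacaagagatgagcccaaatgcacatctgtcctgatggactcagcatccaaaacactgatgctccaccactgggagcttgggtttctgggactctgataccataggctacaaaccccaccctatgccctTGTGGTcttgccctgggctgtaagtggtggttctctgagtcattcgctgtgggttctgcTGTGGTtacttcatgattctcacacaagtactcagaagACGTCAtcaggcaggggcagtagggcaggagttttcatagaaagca
Prf1: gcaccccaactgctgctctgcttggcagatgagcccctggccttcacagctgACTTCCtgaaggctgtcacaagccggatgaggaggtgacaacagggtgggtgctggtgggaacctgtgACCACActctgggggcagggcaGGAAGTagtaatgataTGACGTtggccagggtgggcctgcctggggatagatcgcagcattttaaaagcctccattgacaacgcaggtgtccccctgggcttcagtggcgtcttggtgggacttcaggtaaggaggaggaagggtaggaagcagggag

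Counted from the start site to the leftmost base of each match, the Prf1 window held the Ets-type core at −198 and −108, the Runx-type core at −130 and the cyclic AMP core at −92. The Gzmb window held the Runx-type core at −93 and −34 and the cyclic AMP core at position 5 after the start. The Gzma window held the Runx-type core once, at −50. No match overlapped another. Promoters were found for 8 of the 10 genes, Cd2 and Cd4 being without an entry, and with 2 start sites for Lck they made 9 windows. The Ets-type core was in 5 of the 9 windows and in 23.8% of all 32851 mouse promoters of this length, the Runx-type core in 4 and 16.8%, and the cyclic AMP core in 3 and 7.51%. The letters TATAAA were in 0 of the 9 windows and in 13.6% of all promoters. A match is a description of the letters and not evidence that a factor binds. The start sites of Cd3g and Cd3d, which are read in opposite directions, lay 1355 bases apart in the same table, and that of Cd3e 27825 bases from Cd3d.

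Gzma (102995_s_at), a protease that cuts after basic residues, read 522 and 325 in HeJ air, 358 and 180.1 in HeJ ozone, 622 and 366 in HeOuJ air, and 351 and 516 in HeOuJ ozone. The HeJ air and HeJ ozone arrays overlapped, as did the groups of every comparison made for this gene. The suffix of this probe set's name marks probes that may match more than 1 transcript, so that its level may not be that of granzyme A alone. Gzmb (102877_at), the protease that activates caspases in the target cell, read 188 and 203 in HeJ air, 277 and 97.8 in HeJ ozone, 177 and 361 in HeOuJ air, and 283 and 319 in HeOuJ ozone. The HeJ ozone arrays lay on both sides of the HeJ air arrays, and both HeOuJ ozone arrays lay within the range of HeOuJ air. Prf1 (93931_at), which encodes the pore-forming perforin, read 48.0 and 107 in HeJ air, 133 and 42.1 in HeJ ozone, 127 and 103 in HeOuJ air, and 222 and 147 in HeOuJ ozone. The HeOuJ ozone arrays were the highest of the 8 for Prf1, and 1 array of each HeJ group was below the floor.

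**Figure D1:**
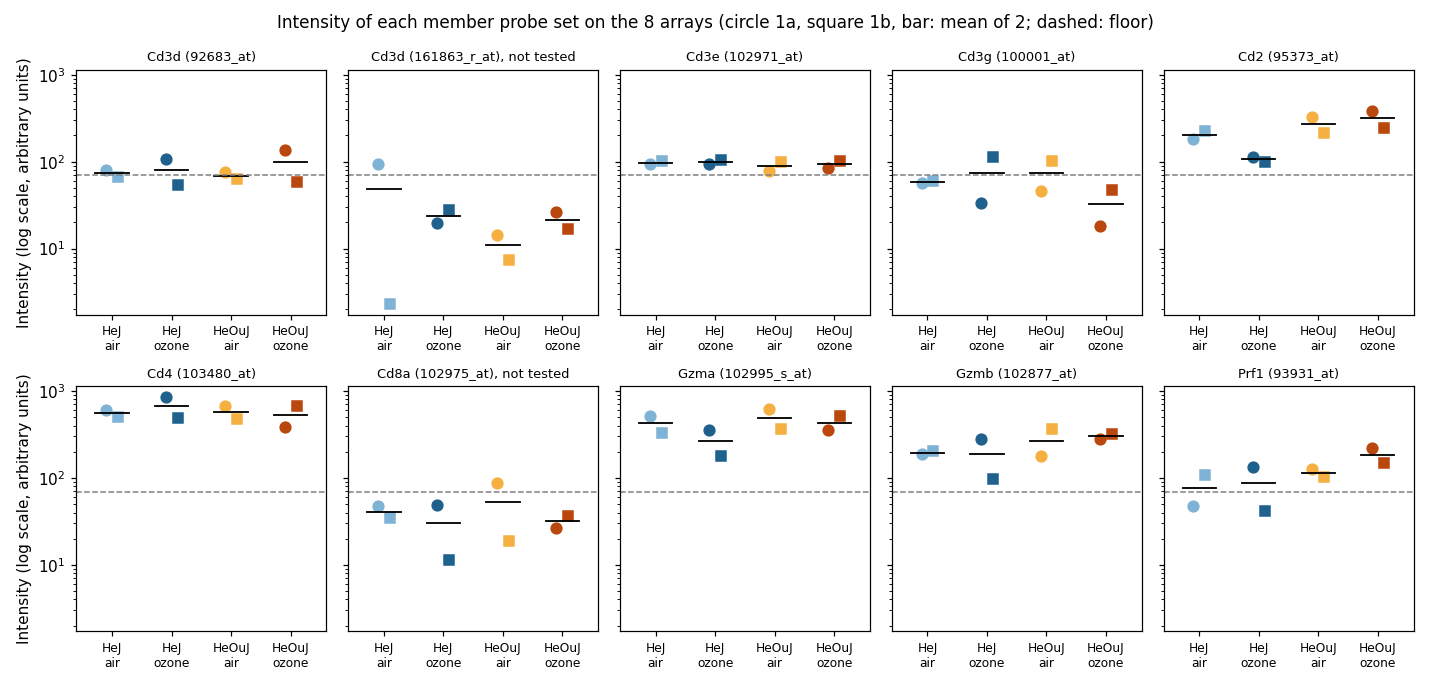
Intensity (log axis, arbitrary units) of each member probe set on the 8 arrays, by substrain and exposure; circles are the arrays lettered 1a, squares 1b, bars the mean of 2 and the dashed line the floor of 69.63. Cd2 is lowest on the HeJ ozone arrays at 113 and 99.1, Prf1 is highest on the HeOuJ ozone arrays at 222 and 147, and Cd8a and the second Cd3d probe set lie mostly under the floor.

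The first comparison asked how ozone exposure changed these genes in C3H/HeJ. In limma, 0 of the 8 members had an adjusted p under 0.05, and 0% of all tested probe sets had one. At an unadjusted p under 0.05 there was 1 member, Cd2, against 4.35% of all probe sets. Its log2 difference, ozone minus air, was −0.94 (SE 0.40, 95% interval −1.85 to −0.03, limma adjusted p = 1), and both ozone arrays lay under both air arrays. With the floor raised to the 30th percentile that difference was −0.60. Cd2 was the 1 member of 8 whose groups did not overlap, lower in ozone, as for 17.1% of all probe sets in that direction. The granule genes gave log2 differences of −0.70 for Gzma (SE 0.45), −0.25 for Gzmb (SE 0.55) and 0.16 for Prf1 (SE 0.43). The sign turned for Gzmb without the HeJ ozone array 1b, to 0.50, and for Prf1 without array 1a, to −0.31. The median over the 8 members was 0.09, beside 0.01 over all tested probe sets. This median and the later ones count Cd3g with its values under the floor set to it, although that gene gives only a bound.

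The B cell list, 16 genes with 14 on the array, was also lower in sum on the HeJ ozone arrays. The summed intensity of its 34 probe sets was 20449 and 21273 in HeJ air, 13413 and 13654 in HeJ ozone, 16742 and 16649 in HeOuJ air, and 17340 and 19056 in HeOuJ ozone, and 2 of the 34 were under the floor on every array. Of its 29 tested probe sets, 23 had a negative difference in HeJ with ozone, and 0 passed the test (6 had an unadjusted p under 0.05, all lower). The list of genes shared by all leukocytes summed to 39098 to 39349 in HeJ air and 33407 to 33859 in HeJ ozone. There, 23 of 27 tested probe sets were negative and 0 passed the test. The list of heart muscle genes summed to 30564 to 32879 in HeJ air and 26402 to 26553 in HeJ ozone. The part of these cell types in the Cd2 values was not tested.

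In C3H/HeOuJ, 0 of the 8 members passed the test with ozone, where 0.456% of all probe sets did, and 0 had an unadjusted p under 0.05, where 15.5% of all did. Prf1 had the largest fitted difference, 0.67 on the log2 scale (SE 0.43, 95% interval −0.31 to 1.64, limma adjusted p = 0.493). It was the 1 member whose groups did not overlap, higher in ozone, as for 23% of all probe sets in that direction. Without the HeOuJ ozone array 1a the Prf1 difference was 0.37, and without array 1b it was 0.96. The other members, Cd3g aside, lay between −0.16 (Gzma) and 0.43 (Cd3d), and the limma adjusted p-values of all 7 were 0.624 to 0.948. The median over the 8 members was 0.14, beside 0.02 over all tested probe sets.

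The difference of the ozone effects asks whether the substrains responded unequally. It was past the threshold for 0 of the 8 members and for 0% of all probe sets, and at an unadjusted p under 0.05 for 0 members and 11.4% of all probe sets. Cd2 had the largest estimate, 1.15 (HeOuJ minus HeJ, SE 0.56, 95% interval −0.13 to 2.44, limma adjusted p = 0.494). The granule genes had estimates of 0.53 for Gzma, 0.50 for Gzmb and 0.51 for Prf1, with SEs of 0.64, 0.78 and 0.61. Each of those intervals held 0 as well as a 2-fold difference in favour of HeOuJ. Averaged over both substrains, the ozone effect was past the threshold for 0 of the 8 members against 0.0183% of all probe sets, and at an unadjusted p under 0.05 for 0 members against 9.25% of all. The estimates ran from −0.43 for Gzma (SE 0.32) to 0.41 for Prf1 (SE 0.30), and no member had all ozone arrays on 1 side of all air arrays, which 3.41% of all probe sets had.

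In filtered air, the substrains were compared without ozone. None of the 8 members passed the test in limma (0.0456% of all probe sets did), 0 had an unadjusted p under 0.05 (5.71% of all did), and 0 had groups that did not overlap (35.1% of all, in either direction). The estimates, HeOuJ minus HeJ, ran from −0.14 for Cd3e (SE 0.29) to 0.40 for Prf1 (SE 0.43), with a median of 0.24 beside 0.01 over all probe sets.

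In ozone, 0 of the 8 members passed the test between the substrains, where 0.977% of all probe sets did. Cd2 was 2.90-fold higher in HeOuJ than in HeJ by the fit, a log2 difference of 1.54 (SE 0.40, 95% interval 0.63 to 2.44, unadjusted p = 0.00426, limma adjusted p = 0.103). It was the 1 member with an unadjusted p under 0.05, which 18% of all probe sets had. Both HeOuJ arrays, at 385 and 245, lay above both HeJ arrays, at 113 and 99.1. Its estimate was positive under all 19 alternatives, between 1.19 and 2.30, with limma adjusted p-values from 0.0618 to 1. The lowest value came with the floor at the 30th percentile. Without the HeOuJ ozone array 1a the estimate was 1.21, and without array 1b it was 1.86. With the actin ratio as a covariate it was 2.30 with an SE of 1.60, so that fit placed little limit on the value.

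The granule genes had positive estimates in ozone that did not pass the test. The log2 difference was 0.91 for Prf1 (SE 0.43, 95% interval −0.07 to 1.89, limma adjusted p = 0.309), 0.87 for Gzmb (SE 0.55, −0.38 to 2.12, limma adjusted p = 0.452) and 0.75 for Gzma (SE 0.45, −0.29 to 1.78, limma adjusted p = 0.436). The groups of Prf1 and Gzmb did not overlap, nor did those of Cd2, and these were 3 of 8 members with HeOuJ higher, as 25.4% of all probe sets were. All 3 values rested on the HeJ ozone array 1b, where Gzma read 180.1, Gzmb 97.8 and Prf1 42.1. Without it the differences were 0.25 for Gzma, 0.12 for Gzmb and 0.45 for Prf1, and without the HeJ ozone array 1a they were 1.24, 1.62 and 1.38. Without the HeOuJ ozone array 1a they were 1.02, 0.96 and 0.61, and without array 1b they were 0.47, 0.78 and 1.21. Since Prf1 was under the floor on the HeJ ozone array 1b, its difference also moved with the floor, to 1.27 with the floor at the 10th percentile and 0.43 at the 30th. With the actin ratio as a covariate Gzmb and Prf1 were at 2.27 (SE 2.17) and 3.05 (SE 1.53), each with a limma adjusted p of 1. Gzma went the other way in that fit, to 0.12 (SE 1.83), its lowest value over the alternatives. In the same comparison Cd3d was at 0.18 (SE 0.38), Cd3e at −0.09 (SE 0.29) and Cd4 at −0.33 (SE 0.37). Over the alternatives Cd3d ran from −0.31 to 0.67 and Cd4 from −0.74 to 0.07, and leaving out 1 array turned the sign of each. The interval of Cd3e, −0.76 to 0.58, was the narrowest of the 8.

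Averaged over both exposures, HeOuJ minus HeJ was past the threshold for 0 of the 8 members against 0.155% of all probe sets. Cd2 was at 0.96 (SE 0.28, limma adjusted p = 0.213) and was the 1 member with an unadjusted p under 0.05, which 13% of all probe sets had. No member had all HeOuJ arrays on 1 side of all HeJ arrays, which 5.04% of all probe sets had.

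**Figure D2:**
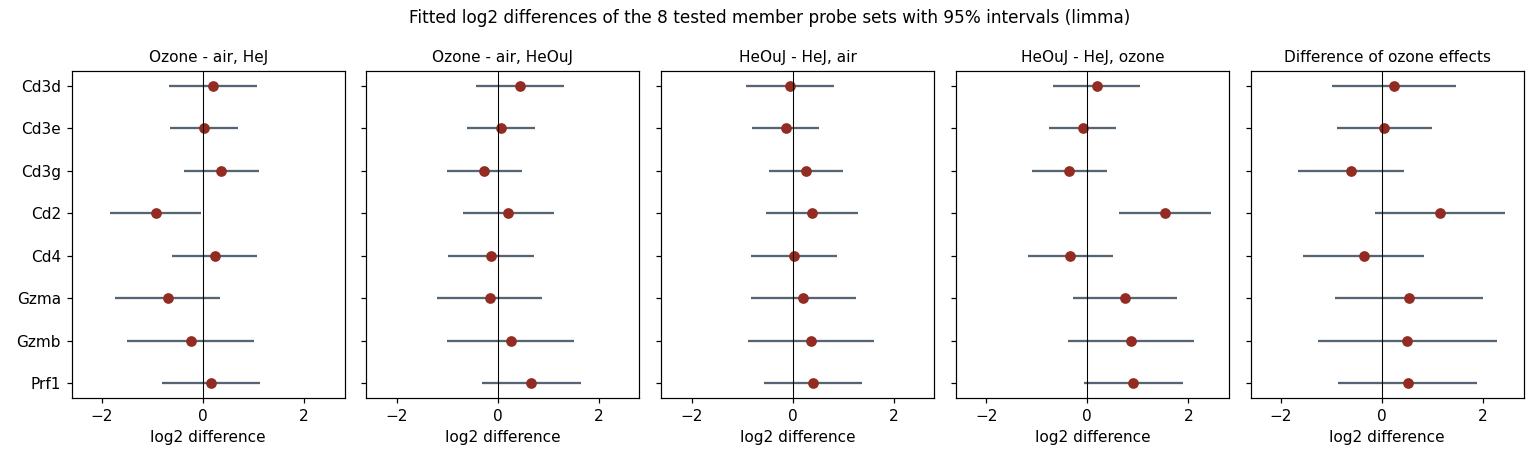
Fitted log2 differences (points) with 95% intervals (lines) of the 8 tested member probe sets in 5 comparisons, from limma. Cd3g was under the floor on every HeJ air and HeOuJ ozone array, so its points are no measured differences. Most intervals span 0; the exceptions are Cd2 for ozone minus air in HeJ, at −0.94, and Cd2 for HeOuJ minus HeJ in ozone, at 1.54, neither of which passed after adjustment.

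The rest of the pathway was read from a list of 47 genes of the antigen receptor, its coreceptors and its signalling, of which 30 were on the array and 25 were tested, with 35 probe sets. None of the 35 passed the test in any of the 7 comparisons, and the number with an unadjusted p under 0.05 in limma ran from 0 to 4. Over all tested probe sets, 0% to 0.977% passed by comparison, and 4.35% to 18% had an unadjusted p under 0.05. The 18% was for HeOuJ minus HeJ in ozone, where the list had 1. In ozone, 24 of the 35 had a lower estimate in HeOuJ than in HeJ, with a median of −0.16 beside 0.02 over all probe sets. The median over the 8 members, which include the granule genes, was 0.46, but 0.06 without the HeJ ozone array 1b and 0.87 without array 1a. Among the T cell members Cd2 was at 1.54, Cd3d at 0.18, Cd3e at −0.09 and Cd4 at −0.33, and Cd3g gave only a bound. The granule genes Gzma, Gzmb and Prf1 were at 0.75, 0.87 and 0.91. In air, 22 of the 35 were lower in HeOuJ, with a median of −0.13. The 3 genes with the smallest p-values were Fyn, a kinase related to Lck, Rasgrp1, which passes the receptor signal to Ras, and Cd27, a costimulatory receptor. Fyn differed by −0.56 between the substrains over both exposures (SE 0.20, limma adjusted p = 0.284). Rasgrp1 read 47.5 to 54.85 on the 4 HeJ arrays, all under the floor, and 72.4 to 279 on the 4 HeOuJ arrays, with a limma adjusted p of 0.302 for the same comparison. Cd27 had 2 probe sets that differed from each other: in HeOuJ with ozone, 102281_at was at −1.16 (SE 0.37, limma adjusted p = 0.195) and 102282_g_at at 0.05 (SE 0.33).

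A second list held 45 genes of NK cells and cytotoxic effectors, of which 31 were on the array and 26 were tested, with 31 probe sets. It had 1 call in the 7 comparisons: Tyrobp, an adaptor of activating receptors in NK cells that myeloid cells also use, was higher in HeOuJ than in HeJ in ozone. Tyrobp read 1835 and 1542 in HeJ ozone and 2860 and 3057 in HeOuJ ozone, a log2 difference of 0.81 (SE 0.14, limma adjusted p = 0.0483). Leaving out any 1 of the 8 arrays left 0 calls in both lists together. In the same comparison the lists of macrophage and dendritic cell, neutrophil, pan-leukocyte, B cell and heart muscle genes had 1 call each, all higher in HeOuJ. These were Cd68 at 1.29, 1 of 2 Lcn2 probe sets at 1.48 (the other at 0.19), Itgb2 at 1.32, 1 of 13 tested Ighm probe sets at 2.32, and Myh6 at 0.84. Over all tested probe sets, 0.977% were called in this comparison (38 higher, 69 lower), and 52.1% were positive, with a median of 0.02. The lists just named were mixed as a whole. Estimates were positive for 9 of 17 macrophage and dendritic cell probe sets (median 0.03), 8 of 14 neutrophil (0.07) and 16 of 27 pan-leukocyte (0.03). They were positive for 21 of 29 B cell (0.26) and 7 of 10 heart muscle probe sets (0.35). The part of these cell types in the Tyrobp value was not tested.

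Ccl5, a chemokine of activated T and NK cells, read 482 and 454 in HeJ ozone and 833 and 1018 in HeOuJ ozone, a log2 difference of 0.98 (SE 0.22, limma adjusted p = 0.0724). Serpinb9, the inhibitor that protects cells from granzyme B, read 5525 and 4185 in HeOuJ air and 2822 and 2815 in HeOuJ ozone, a log2 difference of −0.77 (SE 0.16, limma adjusted p = 0.0862). Both missed the threshold. Over the whole list, 13 of the 31 probe sets had a positive estimate for HeOuJ minus HeJ in ozone, with a median of −0.07. Another list, of proteases related to the granzymes in mast cells and neutrophils, had 0 calls among 15 tested probe sets in the 7 comparisons, and its counts at an unadjusted p under 0.05 in limma ran from 0 to 2. Lists of thymocyte genes and of lymph node stroma had 5 tested probe sets each and 0 calls in limma, with 0 to 1 at an unadjusted p under 0.05. Over all tested probe sets, 4.35% to 18% had an unadjusted p under 0.05, by comparison.

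**Figure D3:**
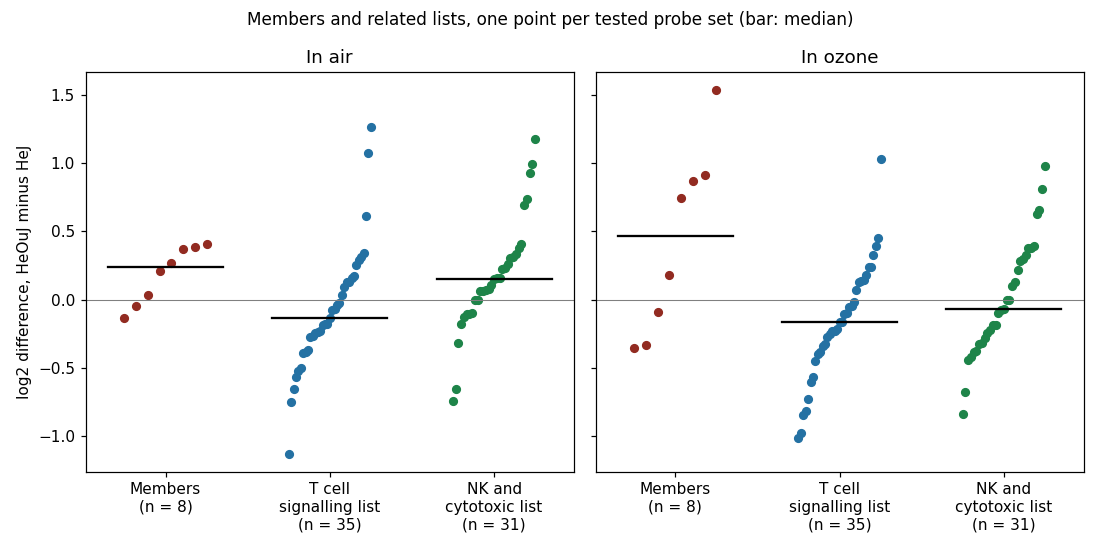
Log2 difference, HeOuJ minus HeJ, in air and in ozone, 1 point per tested probe set, for the 8 members, the 35 probe sets of the T cell signalling list and the 31 of the NK and cytotoxic list; bars are medians. In ozone the highest member is Cd2 at 1.54 and the member median is 0.46. The members include the granule genes Gzma, Gzmb and Prf1, at 0.75, 0.87 and 0.91. The lowest point, Cd3g, has both HeOuJ ozone arrays at the floor and is no measured difference. The medians of both lists are below 0, at −0.16 and −0.07.

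Correlations among the members were spread on both sides of 0. Over the 8 arrays, the 28 pairs of tested members had Pearson correlations of −0.71 to 0.66 with a median of −0.04, and 13 of the 28 were positive. Over all pairs of every 7th tested probe set the median was 0.01 and 50.6% were positive. The highest values were for Cd3d with Prf1 at 0.66, Cd2 with Prf1 at 0.65 and Gzmb with Prf1 at 0.62. The lowest was for Cd3g with Gzma at −0.71. The 3 CD3 chains, subunits of 1 complex, gave −0.54 for Cd3d with Cd3e, −0.40 for Cd3d with Cd3g and 0.49 for Cd3e with Cd3g. In every group Cd3d was higher on the array lettered 1a and Cd3e on the array lettered 1b. Cd3d was above the floor on 4 arrays, all lettered 1a, and Cd3g on 2, both lettered 1b. The signs of these 3 correlations thus follow the array letter, and they are no measure of how the chains vary together. The points of each correlation are the same 8 arrays in 4 groups, and values at the floor have no order.

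**Figure D4:**
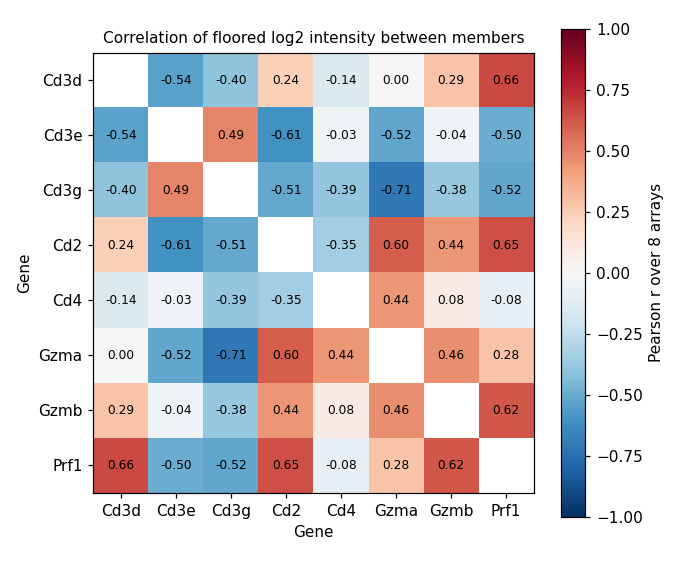
Pearson correlation of log2 intensity, with values under the floor set to it, between the 8 tested members over the 8 arrays; red is positive and blue negative. The values run from −0.71 (Cd3g with Gzma) to 0.66 (Cd3d with Prf1).

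The genes whose pattern over the 8 arrays was most like that of the members were found among 9677 other probe sets of 1 named gene. The mean of Cd3d, Cd3e and Cd3g correlated most with Mtmr14 (0.97), Ghrh (0.96), Elac2 (0.94), Pspn (0.94) and Cdk2 (0.93). The mean of Gzma, Gzmb and Prf1 correlated most with Afg3l1 (0.98), Gdap2 (0.97), Ap1g1 (0.96), Cdip1 (0.94) and Dhps (0.93). Correlations above 0.8 were found for 1% of the candidates with the CD3 mean and for 1.22% with the granule mean. What share an unrelated pattern would give was not computed. None of the 10 leading genes was in the T cell or NK lists. Those lists held only 35 and 31 tested probe sets among the 9677 candidates, so their absence says little. In the CD3 mean, Cd3d was above the floor on 4 of the 8 arrays and Cd3g on 2.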

How the data were processed

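The deposited values are microarray intensities, 1 per probe set and array, per the value tables; the authors' software, scaling method and annotation version are not given in the sources used here, and the values are on 1 common scale across arrays. Values under the floor of 69.63 were set to it and log2 was taken. Genes were named from the platform annotation, with 10833 probe sets naming 1 gene. limma 3.58.1 in R 4.3.3 was fitted to all 10953 tested probe sets over 8 arrays, with an intensity trend, 7 contrasts and Benjamini-Hochberg adjustment over all of them. The script was tested on simulated data. Figures were drawn with matplotlib 3.10.9. The members, lists and tests were chosen with earlier results of these data known. Besides members, the text names from each list up to 3 genes with the smallest p and those past the threshold, limited to those a result turns on, and 5 genes per likeness pattern. Alternatives covered normalisation, floor, filter, variance trend, samples fitted, the letters as a block, the actin ratio, each array left out and averaging of probe sets.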

Additional observations from a re-analysis of the deposited data

Results flagged for a closer look

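No tested member met the criterion used here, which is that both ozone arrays lay on 1 side of both air arrays in HeJ and on the opposite side in HeOuJ, or the same for the substrains in air and in ozone. Among the related genes named above, 6 probe sets met it for ozone, and the difference of the ozone effects (HeOuJ minus HeJ, log2) passed the limma test for 0 of them. Those genes had been named for small p-values over the 7 comparisons, this difference included. The share of all probe sets that meet the criterion was not counted, so the number 6 has no reference. Tyrobp was lower with ozone in HeJ and higher in HeOuJ, a difference of 0.75 (SE 0.20, limma adjusted p = 0.241). Cd68 at 0.70 (SE 0.25), the called Lcn2 probe set at 1.08 (SE 0.24) and Myh6 at 0.67 (SE 0.21) had the same directions, with limma adjusted p-values of 0.351, 0.184 and 0.303. Serpinb9 went the other way, higher with ozone in HeJ and lower in HeOuJ, at −1.08 (SE 0.23, limma adjusted p = 0.184), and its substrains were also separated in opposite directions in air and in ozone. Cd27 (102281_at) was likewise higher in HeJ and lower in HeOuJ, at −1.59 (SE 0.52, limma adjusted p = 0.317). That probe set read 58.1 on the HeOuJ ozone array 1a, under the floor. The other Cd27 probe set, 102282_g_at, had a difference of 0.02 (SE 0.47).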

How the results depend on the processing

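Across 19 alternatives, 0 of 130 member counts was above 0, so no member passed the threshold under any that could be fitted; the smallest limma adjusted p was 0.0618, for Cd2 between the substrains in ozone. Of 998 member values under alternatives, 76 changed sign, none of them past the threshold. The count of calls in the T cell signalling and NK lists for HeOuJ minus HeJ in ozone was 1. It was 0 with median centring, with no filter on dim probe sets, with no variance trend, with only the groups compared, with the actin ratio as covariate and with the mean over the probe sets of a gene, and 2 with probe sets above the floor on all arrays. With 1 array left out it was 0 to 0, the lone array of a group being assumed to vary like the others. The median over the members in the same comparison was 0.06 to 0.87 with 1 array left out, the extremes being without the HeJ ozone arrays 1b and 1a. The letters 1a and 1b were not taken as pairing the arrays, since the labels do not say what they mean and not every correlation of deviations between same-lettered arrays was over 0.1: they were 0.11 to 0.14 among the 3 groups other than HeOuJ ozone and −0.01 to 0.04 between those and HeOuJ ozone. The 5′ to 3′ ratio for Gapdh was higher on array 1a than on array 1b in every group, at 1.34 and 1.18 in HeOuJ ozone. The actin ratio was higher on 1a only in HeJ air and HeOuJ ozone. With the letter as a replicate block, Cd2 between the substrains in ozone stayed at 1.54, with a limma adjusted p of 0.0932, and 0 members passed. Signal near the floor limits Cd3d, Cd3e, Cd3g, Cd8a and, in HeJ, Prf1. It also bears on Cd2 and Gzmb, which read as low as 99.1 and 97.8 in HeJ ozone. With the floor at the 30th percentile, their differences between the substrains in ozone moved from 1.54 to 1.19 and from 0.87 to 0.64.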
